A study of Mus musculus with 2 samples.

Results

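Voltage-gated sodium and calcium channel genes were followed in the cochlea of female mice of the inbred strain C57BL/6, aged 7 weeks, 3 hours after 2 hours of intense noise and without noise exposure. Members were all genes on the array whose name was Scn followed by digits and a or b, or started with Cacna, Cacnb or Cacng, apart from 1 gene. This gave 39 of 37067 gene names, carried by 99 probes of 60 bases. Each group had 1 array of total cochlear RNA, so there was no replicate, no test was possible, and each difference below is one between 2 samples. The labels name no transgene, deletion or drug for either group, and the number of mice behind each sample and the noise level are not given in the sources used here.

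Voltage-gated sodium channels open on depolarization and carry the upstroke of the action potential. Each has a large pore-forming alpha subunit, and the alpha genes divide by tissue into those of central and peripheral neurons, skeletal muscle and heart, with small beta subunits that attach the channel to neighbouring proteins and tune its gating. Voltage-gated calcium channels have an alpha1 pore, a cytoplasmic beta subunit and an alpha2delta subunit, and they couple depolarization to transmitter release in neurons and hair cells and to contraction in muscle. Of the gamma genes, Cacng1 encodes a subunit of the skeletal muscle channel, and Cacng6 was grouped with it here as a muscle type. Others (Cacng2, Cacng3, Cacng4, Cacng5, Cacng7 and Cacng8) encode auxiliary subunits of AMPA-type glutamate receptors.

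The promoter windows of the members at the ends of the range are shown first. Cacng7 had the lowest ratio of all members, Cacna1s the lowest and Scn4a a near-zero ratio among skeletal muscle types, and Scn10a and Scn11a the highest ratios. Each window holds the 250 bases before the annotated RefSeq start, 5′ to 3′ on the gene's strand (GRCm38.p6), with every E-box (CANNTG, a palindrome and so the same on both strands, bound by basic helix-loop-helix factors of muscle and of neurons) in capitals. The windows are chr7:3332575-3332824 (plus strand, Cacng7), chr1:136052561-136052810 (plus strand, Cacna1s), chr11:106349391-106349640 (minus strand, Scn4a), chr9:119719033-119719282 (minus strand, Scn10a) and chr9:119825457-119825706 (minus strand, Scn11a).
Cacng7: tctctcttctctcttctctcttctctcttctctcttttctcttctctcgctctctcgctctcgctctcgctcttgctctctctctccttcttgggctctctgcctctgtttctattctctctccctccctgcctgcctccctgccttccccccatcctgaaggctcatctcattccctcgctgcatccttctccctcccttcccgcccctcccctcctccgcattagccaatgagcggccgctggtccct
Cacna1s: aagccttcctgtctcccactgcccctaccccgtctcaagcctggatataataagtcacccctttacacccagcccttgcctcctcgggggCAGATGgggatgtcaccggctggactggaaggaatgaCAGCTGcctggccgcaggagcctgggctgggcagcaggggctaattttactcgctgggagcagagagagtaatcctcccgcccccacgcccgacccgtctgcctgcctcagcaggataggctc
Scn4a: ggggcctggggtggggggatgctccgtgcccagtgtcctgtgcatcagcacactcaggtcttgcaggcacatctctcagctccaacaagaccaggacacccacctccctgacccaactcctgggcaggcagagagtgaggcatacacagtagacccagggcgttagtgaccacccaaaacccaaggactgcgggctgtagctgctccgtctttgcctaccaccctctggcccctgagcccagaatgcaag
Scn10a: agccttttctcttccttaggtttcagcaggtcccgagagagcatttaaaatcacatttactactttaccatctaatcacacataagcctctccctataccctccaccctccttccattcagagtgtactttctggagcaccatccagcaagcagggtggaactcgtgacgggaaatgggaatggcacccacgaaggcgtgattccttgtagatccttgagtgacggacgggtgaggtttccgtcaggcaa
Scn11a: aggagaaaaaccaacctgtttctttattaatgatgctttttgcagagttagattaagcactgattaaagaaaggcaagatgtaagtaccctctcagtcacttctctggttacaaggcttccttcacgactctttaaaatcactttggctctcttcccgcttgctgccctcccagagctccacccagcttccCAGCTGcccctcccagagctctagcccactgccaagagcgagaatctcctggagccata
Cacna1s held 2 E-boxes (CAGATG and CAGCTG) and Scn11a held 1 (CAGCTG), while these letters did not occur in the windows of Cacng7, Scn4a and Scn10a. The table gave windows for 29 members, 39 windows in all, and 25 of these (64.1%) held the motif, against 66.2% of all 32851 windows of the same length. A match describes the letters only.

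Of the 99 member probes, 77 were well above background on both arrays, 1 after noise only, 4 on the baseline array only, and 17 on neither. A gene took the median over its measured probes, meaning those well above background on both arrays, and 37 of the 39 members had at least 1. The exceptions were Cacng3 and Cacng8, each with a single probe near background on both arrays (scaled signals, explained next, of 0.376 after noise and 0.328 at baseline for Cacng3, and of 0.882 and 1.26 for Cacng8). Signals are given scaled, with the 75th percentile of each array set to 100, and the ratio is log2 noise minus log2 baseline after this scaling. The lowest scaled signals that counted as well above background were 1.45 (noise) and 1.56 (baseline). The arrays were alike in brightness, with 75.3% and 75.2% of probes well above background. The arrays shared a slide and a scan. Technical error was gauged in 3 ways. The scanner software's own error model, an estimate rather than a measured spread, gave a median error of 0.21 for the log2 ratio of a measured member probe. These errors ran from 0.20 to 0.31, with most near the lower end. Repeat spots of a probe differed by a median SD of 0.046 and 0.051 in log2 signal on the noise and baseline arrays. Different probes of a gene differed in ratio by a pooled SD of 0.27 over 9348 genes, which can also hold differences between transcripts. None of these includes the spread between animals.

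None of the 37 measured members was at least 2-fold higher or lower after noise. Over all 26528 measured genes, 0.611% were at least 2-fold higher and 1.25% at least 2-fold lower, so that 0 among 37 is a share near this background. With a lesser fold of 1.5, chosen after the values had been seen, 2 members were lower, Cacng7 and Cacna1s (4.99% of all genes were), and none was higher (3.02% of all genes were). The members ran from -0.90 (Cacng7) to 0.23 (Scn11a), with a median of -0.20 against -0.01 for all genes, and 24 of them lay within 0.27 of 0, the SD between probes. Below 0 lay 29 of 37 members, against 52.5% of all genes. In RNA from a whole tissue, fewer cells of a type and less RNA per cell cannot be told apart. Scaling to the spike-in RNA placed the median of all genes at 0.16, and 20 of 37 members then lay below 0, while the members' median stayed 0.19 below that of all genes, and with the normexp background, another way to estimate background from the spots, it was 0.09 below. Sodium channel genes had a median of -0.16 (10 of 14 below 0) and calcium channel genes a median of -0.21 (19 of 23 below 0). Potassium channel genes, defined as names starting with Kcn, had a median of -0.21 over 86 measured genes, with 60 below 0. This median was close to those of the sodium and calcium channel genes. Of the 86, 6 were at least 2-fold lower (0 of the 37 members and 1.25% of all genes were), and 0 were at least 2-fold higher. The lowest was Kcne1l at -2.33.

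**Figure D1:**
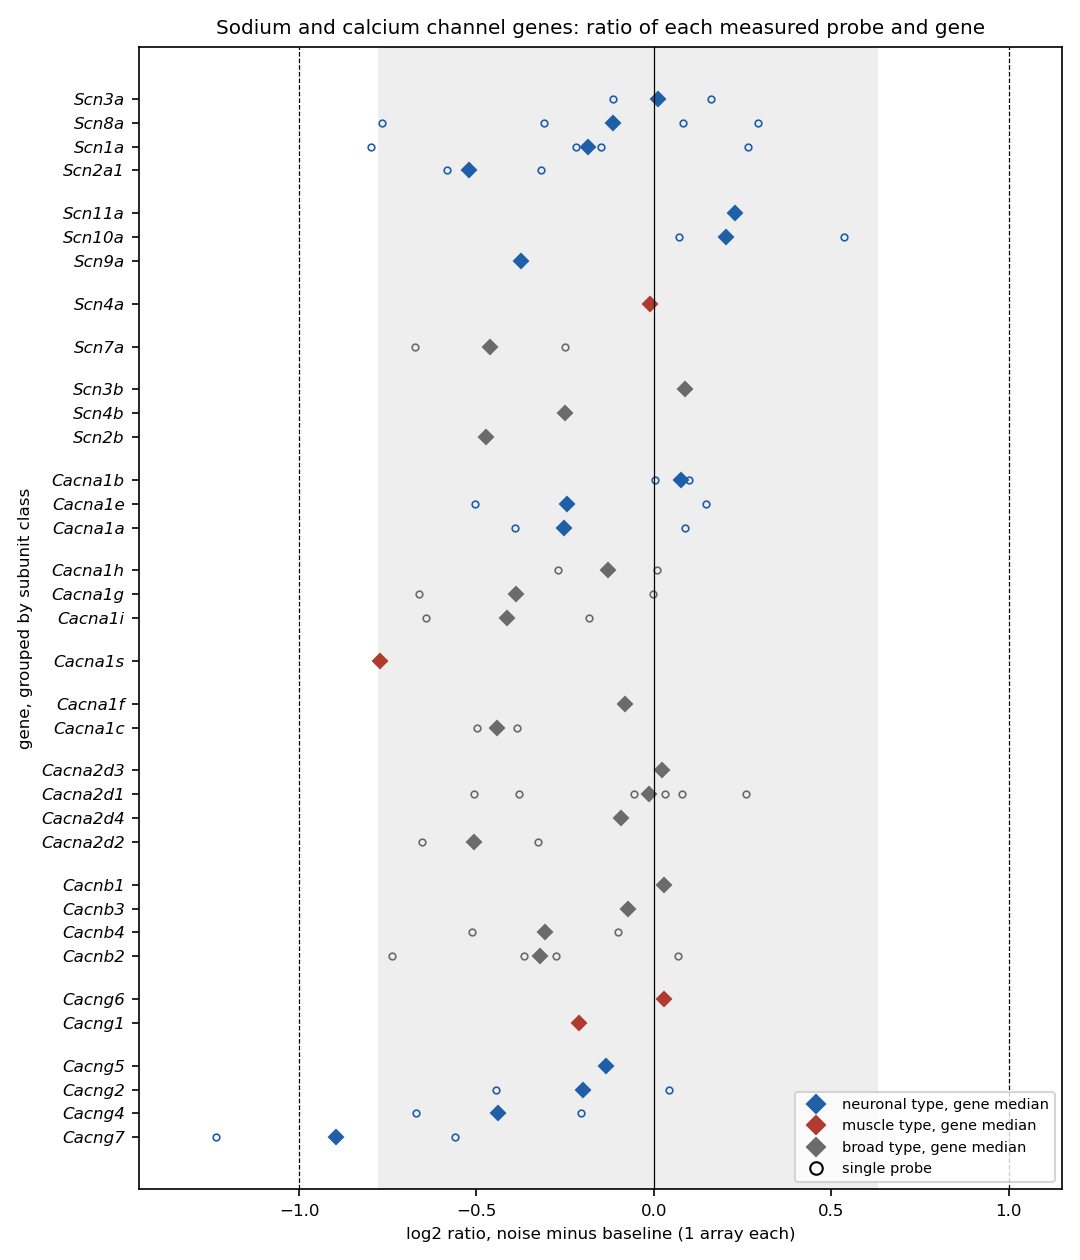
Log2 ratio (noise minus baseline, 1 array each) of 35 measured channel genes, in rows by subunit class; diamonds are gene medians, open circles single measured probes, the grey band holds the central 95% of all genes and the dashed lines mark 2-fold. All gene medians lie between the dashed lines, and Cacng7 at -0.90 is the only one outside the grey band.

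Among sodium channel alpha subunits of central and nodal neurons, 3 of 4 lay below 0 (Scn8a lay above 0 with spike-in scaling and with its brightest probe, and Scn3a below 0 with the normexp background). Scn2a1, the array's name for Scn2a, which encodes Nav1.2 of unmyelinated axons and developing neurons, had the lowest ratio. Its 3 measured probes were at scaled signals of 5.39, 9.32 and 42.9 on the noise array and 8.07, 11.6 and 61.7 on the baseline array, giving a ratio of -0.52 ± 0.14 (SD between 3 probes). All 3 probes were lower after noise, and they lie on chromosome 2 between 65508693 and 65605488 (mm9). Scn8a encodes Nav1.6, the main channel of nodes of Ranvier and of the spike-initiating zone of auditory nerve fibres. Its probes disagreed. The pair on chromosome 15 at 100871650-100871709 and 100875702-100875761, farthest along the gene's strand, read 213 and 558 on the noise array against 174 and 527 at baseline (ratios 0.29 and 0.08). A probe at 100766904-100766963 read 15.5 against 26.3 (-0.77), and one whose bases are split over a longer stretch of the genome, from 100701172 to 100766758, read 7.63 against 9.47 (-0.31). The gene's median of -0.11 ± 0.47 (SD, 4 probes) thus joins probes of opposite sign, and a difference for Scn8a was smaller than the spread among its own probes. Scn1a, which encodes Nav1.1 of fast-spiking neurons, was alike, at -0.19 ± 0.44 (SD, 4 probes), with probes from -0.80 to 0.27. Scn3a, which encodes Nav1.3 and is strongest in the embryonic brain, read 9.50 (noise) and 9.43 (baseline), at 0.01 ± 0.14 (SD, 3 probes).

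The alpha subunits of peripheral sensory neurons held both of the highest members. Scn11a (Nav1.9) read 219 on the noise array and 187 at baseline from 1 probe at chr9:119662887-119662946 (mm9), a ratio of 0.23. Scn10a (Nav1.8), its neighbour on the chromosome, had 3 probes at 238, 16.9 and 4.80 after noise and 207, 11.7 and 4.57 at baseline, a ratio of 0.20 ± 0.24 (SD, 3 probes). All of these probes were higher after noise, but both ratios were near the error that the scanner software's model assigns to a single probe (0.21). Each gene stood within the central 95% of genes, which ran from -0.77 to 0.63. Both encode channels that resist tetrodotoxin and are known from pain-sensing ganglion neurons. Scn9a (Nav1.7), the channel of sensory and sympathetic neurons, read 3.47 (noise) and 4.50 (baseline) from 1 measured probe, a ratio of -0.37 at signals close to the lower limit.

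The probes of Scn10a lie on chromosome 9 between 119517585 and 119556379 (mm9). In the group of neighbouring alpha genes on chromosome 2, the ratios were 0.01 (Scn3a), -0.52 (Scn2a1), -0.19 (Scn1a), -0.37 (Scn9a) and -0.46 (Scn7a). Scn7a encodes a sodium sensor of glia and Schwann cells, and its 2 probes read 9.19 and 2.94 after noise against 14.7 and 3.49 at baseline, both lower (-0.46 ± 0.30, SD, 2 probes).

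Of the beta subunit genes, Scn4b, whose product binds to fast neuronal channels, read 563 (noise) and 669 (baseline), a ratio of -0.25 from 1 probe. Scn2b, a subunit joined covalently to neuronal alpha chains, was the lowest of the class, at 121 against 168 (-0.47, 1 probe). Scn3b was at 85.5 against 80.5 (0.09). Its further probe was well above background at baseline only, at 2.69 against 1.49 on the noise array, 1.80-fold. The ratios of these genes thus spread from -0.47 to 0.09.

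Among presynaptic calcium channel pores, Cacna1b was near 0 and Cacna1a and Cacna1e were below 0, Cacna1e not so with its brightest probe. Cacna1b, the N-type pore, had 3 measured probes at 41.4, 19.0 and 3.32 after noise and 39.3, 19.0 and 3.11 at baseline (0.07 ± 0.049, SD, 3 probes), the closest set of probes of any member. Cacna1a, the P/Q-type pore, which carries transmitter release at most central synapses, read 155, 85.6 and 6.11 against 185, 112 and 5.76 (-0.25 ± 0.25, SD, 3 probes). Its brighter pair was lower and its dim probe higher. Cacna1e, the R-type pore, was at -0.25 ± 0.33 (SD, 3 probes), with its brightest probe at 88.9 against 80.3 (0.15) and the other 2 measured on both arrays below 0. A further Cacna1e probe was well above background after noise only, at 1.69, at least 1.08-fold over the baseline array.

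All 3 low-voltage activated (T-type) genes, whose channels open near the resting potential, lay below 0, apart from Cacna1h with spike-in scaling (0.04). Cacna1i was at -0.41 ± 0.32 (SD, 2 probes), Cacna1g at -0.39 ± 0.33 (SD, 3 probes) and Cacna1h at -0.13 ± 0.20 (SD, 2 probes). The 3 probes of Cacna1g lie within chr11:94269863-94270976 (mm9), and they read 57.8, 37.0 and 6.68 after noise against 91.5, 37.0 and 8.75 at baseline, so that probes near each other on the gene gave ratios from -0.66 to near 0. A further Cacna1h probe was well above background at baseline only (2.05), at least 1.41-fold over the noise array.

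Among L-type pores other than that of skeletal muscle, Cacna1c, the channel of heart, smooth muscle and neurons, was lower in both measured probes, at 83.5 and 4.44 after noise against 118 and 5.81 at baseline (-0.44 ± 0.080, SD, 2 probes). A dimmer Cacna1c probe was well above background at baseline only, at 2.72 against 1.64 on the noise array, 1.66-fold. Cacna1f, the L-type pore of photoreceptors, read 10.8 and 11.46 (-0.08, 1 probe).

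The alpha2delta genes had a median of -0.05 and the beta genes one of -0.19. Cacna2d2, an alpha2delta subunit of hair cell channels, read 134, 3.74 and 2.503 after noise and 168, 5.87 and 3.55 at baseline, all 3 lower (-0.51 ± 0.16, SD, 3 probes). Cacnb2, the beta subunit of the inner hair cell channel and of heart, was at -0.32 ± 0.33 (SD, 4 probes), with 3 probes below 0 and 1 above. Hair cell markers measured alongside had a median of 0.07, with 9 of 12 above 0, from Slc26a5 at -0.75 to Pou4f3 at 0.67. Slc26a5 had 1 measured probe, at scaled signals of 1.78 (noise) and 3.00 (baseline), near the lower limit. Its other probe was well above background after noise only. The summed scaled signal of the hair cell markers was 1046 (noise) against 982 (baseline), of which Gfi1 gave 422 and 387. The other 11 markers summed to 624 and 595. Which cells gave the Cacna2d2 and Cacnb2 signals was not tested. Cacna2d3, an alpha2delta subunit needed in the auditory pathway, read 145 and 143 (0.02, 1 probe). Cacna2d1, the most widespread alpha2delta subunit, had 6 measured probes from -0.51 to 0.26 and a median of -0.01 ± 0.29 (SD). Cacna2d4, known from the retina, read 19.7 and 21.0 (-0.09), with a further probe well above background at baseline only, at least 1.96-fold over the noise array. In the beta class, Cacnb4, strong in cerebellum, was at -0.31 ± 0.29 (SD, 2 probes), Cacnb3 read 150.3 against 158 (-0.07) and Cacnb1 16.6 against 16.2 (0.03).

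Cacng7, an auxiliary AMPA receptor subunit of brain, gave the only probe past 2-fold among member probes measured on both arrays. That probe, at chr7:3367751-3367810 (mm9), read 439 after noise and 1032 at baseline, 2.35-fold lower (-1.23), and the other, at chr7:3338624-3339037, read 9.46 against 13.9 (-0.56). Both were lower, and the gene's ratio was -0.90 ± 0.48 (SD, 2 probes), 1.86-fold lower and at the 1.65th percentile of all genes. With its brightest probe in place of the median Cacng7 was past 2-fold, the sole member to be so under any of the settings tried. Cacng4 read 87.8 and 4.49 against 101 and 7.15 (-0.44 ± 0.33, SD, 2 probes), Cacng2 (stargazin) 13.1 and 41.2 against 17.9 and 40.0 (-0.20 ± 0.34, SD, 2 probes) and Cacng5 21.2 against 23.3 (-0.13). All 4 measured genes of this class thus had ratios below 0, with a median of -0.32 (with spike-in scaling Cacng5 turned to 0.04, and with the brightest probe Cacng2 turned to 0.04). AMPA and kainate receptor genes, named Gria or Grik, had a median of -0.40, with 7 of 9 below 0. The neighbours Cacng8 (not measured) and Cacng6 (0.03) on chromosome 7, and Cacng4 and Cacng1 (-0.21) on chromosome 11, belong to different types.

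**Figure D2:**
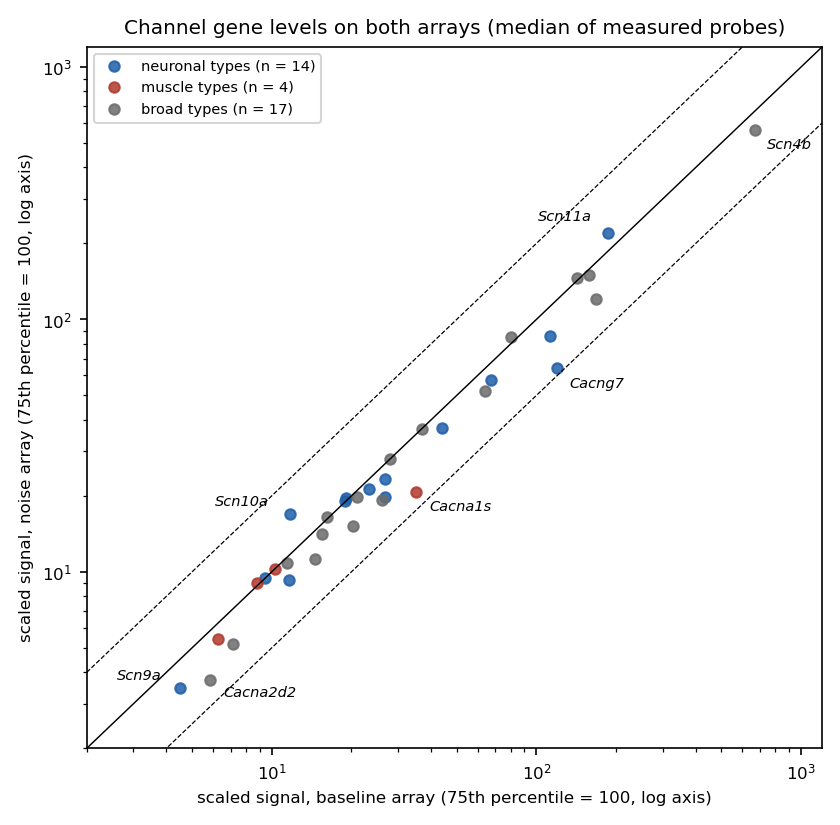
Scaled signal of the same 35 channel genes on the noise array against the baseline array (median of its measured probes on the log2 scale, both axes logarithmic, each array's 75th percentile set to 100); the solid line marks equal signals and the dashed lines 2-fold. Points lie close to the solid line over the whole range of signals, with Cacng7 and Cacna1s nearest the lower dashed line and Scn10a and Scn11a above the solid line. Medians were taken on each array apart, so a point's distance from the solid line can differ from the gene's ratio. Scn10a lies at 16.9 (noise) and 11.7 (baseline) with a ratio of 0.20, and Cacna1g at 37.0 on both arrays with a ratio of -0.39.

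The skeletal muscle types had unlike ratios. Cacna1s, the L-type pore and voltage sensor of skeletal muscle, read 20.6 after noise and 35.2 at baseline from 1 probe at chr1:138016020-138016079 (mm9), 1.71-fold lower (-0.77) and at the 2.53rd percentile of all genes. Its partner subunit Cacng1 read 5.40 and 6.26 (-0.21), and Cacng6, the gamma gene grouped with it, 9.01 and 8.83 (0.03). Scn4a, the sodium channel of skeletal muscle (Nav1.4), read 10.2 and 10.3 (-0.01, probe at chr11:106180721-106180780, mm9), and lay above 0 with median, quantile and spike-in scaling. Each of these genes had 1 measured probe, so there was no spread between probes to set beside the value.

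Neuronal and muscle types had similar medians. The median was -0.19 over 14 measured neuronal genes (10 below 0, range -0.90 to 0.23) and -0.21 over 5 muscle genes (4 below 0, range -0.77 to 0.03), a difference of 0.014. Over the 4 muscle genes described above the median was -0.11, and the difference became -0.082. The pore-forming neuronal alpha subunits alone had a median of -0.15 over 10 genes. The 18 genes of neither type had a median of -0.19, with 15 below 0. The difference between neuronal and muscle medians took either sign across the settings, from -0.082 to 0.17, so no order of these types was found.

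Markers of skeletal muscle, central glia and central neurons had medians farther below 0 than those of the channel types. Medians of noradrenergic neuron markers and cochlear genes lay above 0, and those of cardiac, Schwann cell and hair cell markers near 0. The median of spiral ganglion markers lay between 0 and those of the channel types. Skeletal muscle markers were below 0 in 12 of 12 genes, with a median of -0.88 and 5 at least 2-fold lower, and their summed scaled signal was 1282 (noise) and 2387 (baseline). Central glia markers were below 0 in 7 of 7, with a median of -1.08 and 4 at least 2-fold lower, at 1346 and 2906 in sum, and Opalin was measurable at baseline only. Among central neuron markers the median was -0.83, 7 of 11 lay below 0 and 5 were at least 2-fold lower, from Glra1 at -4.19 to Pcp2 at 1.60, and Slc6a5 was well above background at baseline only. Their summed signal was 3829 (noise) and 4076 (baseline), most of it from Cplx2 (3332 and 2499), and the other 10 measured markers summed to 497 and 1577. Cardiac markers had a median of -0.02 with none past 2-fold (6 measured, Myl7 not well above background). For neurons of the spiral ganglion the markers' median was -0.14, 7 of 12 being below 0 and none past 2-fold, at 13585 and 15101 in sum, and Schwann cell markers a median of 0.03. Noradrenergic neuron markers were above 0 in 6 of 6, with a median of 0.86 and 3 at least 2-fold higher, at 189 and 106 in sum, with Slc6a2 measurable after noise only and Chrna3 on neither array. Cochlear genes such as Coch and Gjb2 were measured on both arrays, 9 of 11 above 0 with a median of 0.33. Otos was the lowest of them, at -0.14. The part of these markers in the ratios of Cacng7, Cacna1s, Scn2a1 or any other channel gene was not tested.

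**Figure D3:**
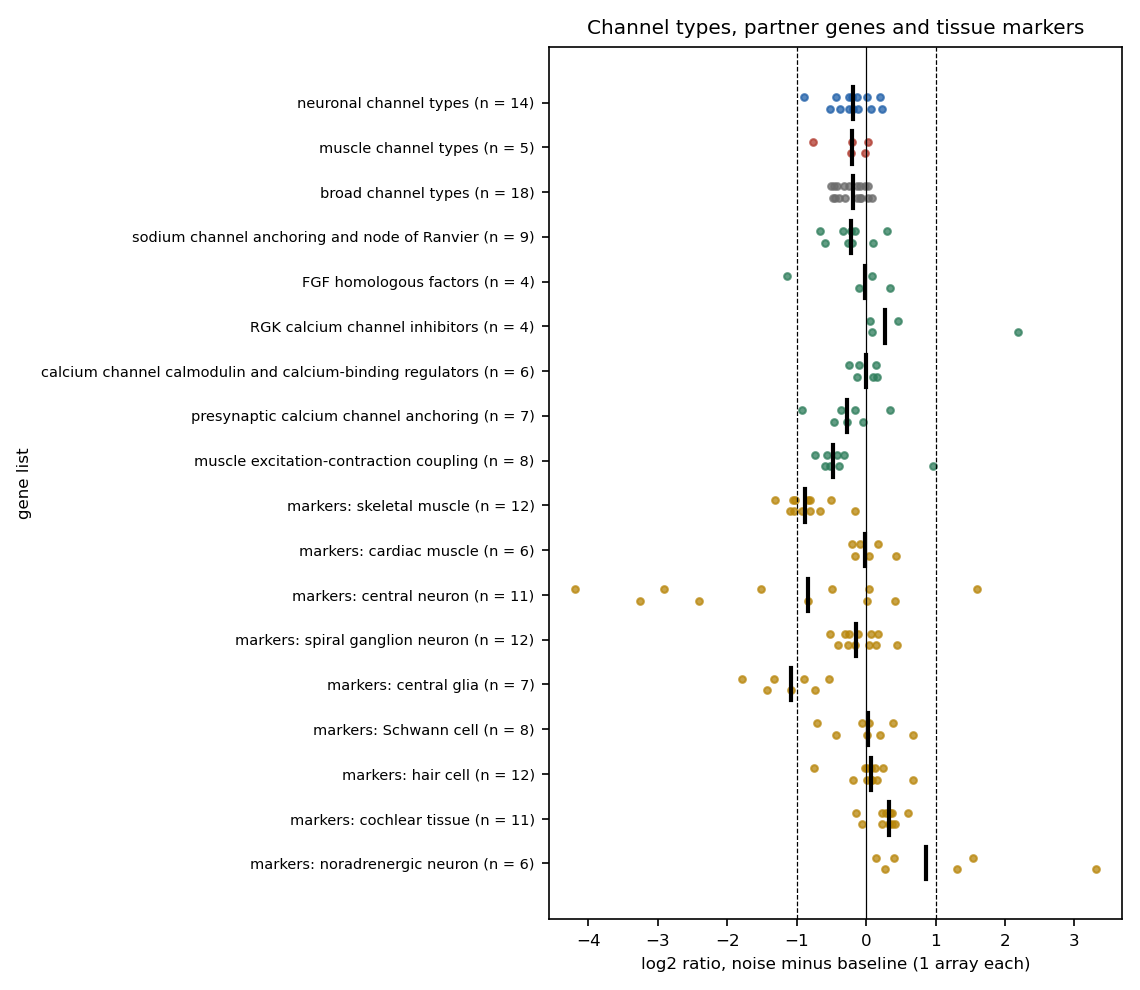
Log2 ratio (noise minus baseline, 1 array each) of each measured gene in the channel types (blue, red, grey), their partner genes (green) and marker lists of tissues (ochre); black bars are list medians and dashed lines mark 2-fold. The medians of the 3 channel types lie between -0.21 and -0.19, while those of central glia and skeletal muscle markers lie at -1.08 and -0.88.

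Partner genes were those whose products bind, place or regulate these channels, or act with Cacna1s in muscle excitation-contraction coupling. The list held 38 genes, all of them measured, of which 13 lay above 0 and 25 below, with a median of -0.18. Past 2-fold were Gem, higher at 2.19 (92.4 after noise, 20.3 at baseline, 1 probe), and Fgf14, lower at -1.13 (3.86 and 8.46, median of 2 probes). The Fgf14 probes were at -1.42 and -0.85, so 1 of them was not past 2-fold. Of all genes, 1.86% were past 2-fold in either direction. Gem belongs to the RGK GTPases, which inhibit high-voltage activated calcium channels, and the others of that family were at 0.46 (Rrad), 0.09 (Rem2) and 0.06 (Rem1). Fgf14 encodes a cytoplasmic FGF homologous factor that binds the tail of neuronal sodium channels, and its relatives were at 0.35 (Fgf11), 0.08 (Fgf12) and -0.11 (Fgf13).

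Anchoring proteins of the axon initial segment and node were below 0 in 7 of 9, with a median of -0.22. They ran from Nfasc (neurofascin) at -0.66 to Nedd4l, a ubiquitin ligase that removes sodium channels from the membrane, at 0.30. The 5 Nfasc probes ran from -1.07 to -0.17. Sptbn4, the spectrin of nodes, was at -0.59 and Ank3 (ankyrin-G), which holds sodium channels at nodes, at -0.25 ± 0.51 (SD, 6 probes), with 1 probe at 0.96. At the release site, 6 of 7 genes were below 0 (median -0.27), from Rims1, a scaffold that tethers presynaptic calcium channels, at -0.93 to the syntaxin gene Stx1a at 0.34. Calmodulin and calcium-binding regulators lay within -0.24 (Calm3) and 0.15 (Calm2). Partners of Cacna1s in excitation-contraction coupling were below 0 in 7 of 8, with a median of -0.48. Ryr1, the calcium release channel that Cacna1s opens, was at -0.74, close to Cacna1s itself, Trdn at -0.59, Casq1 at -0.53 and Stac3 at -0.42, and Jph2 at 0.97 was the exception, at scaled signals of 3.56 and 1.82 near the lower limit.

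Agreement among probes was limited. Of 22 members with several measured probes, 11 had every probe below 0, 2 had every probe above 0 and 9 had probes on both sides. The SD between the probes of a member ran from 0.049 (Cacna1b) to 0.48 (Cacng7), with a median of 0.29. Brightness did not divide the ratios: the 38 brighter measured member probes had a median of -0.21 with 27 below 0, and the 39 dimmer ones a median of -0.18 with 26 below 0. For all probes of the same ranges of signal the medians were 0.0067 and -0.058.

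**Figure D4:**
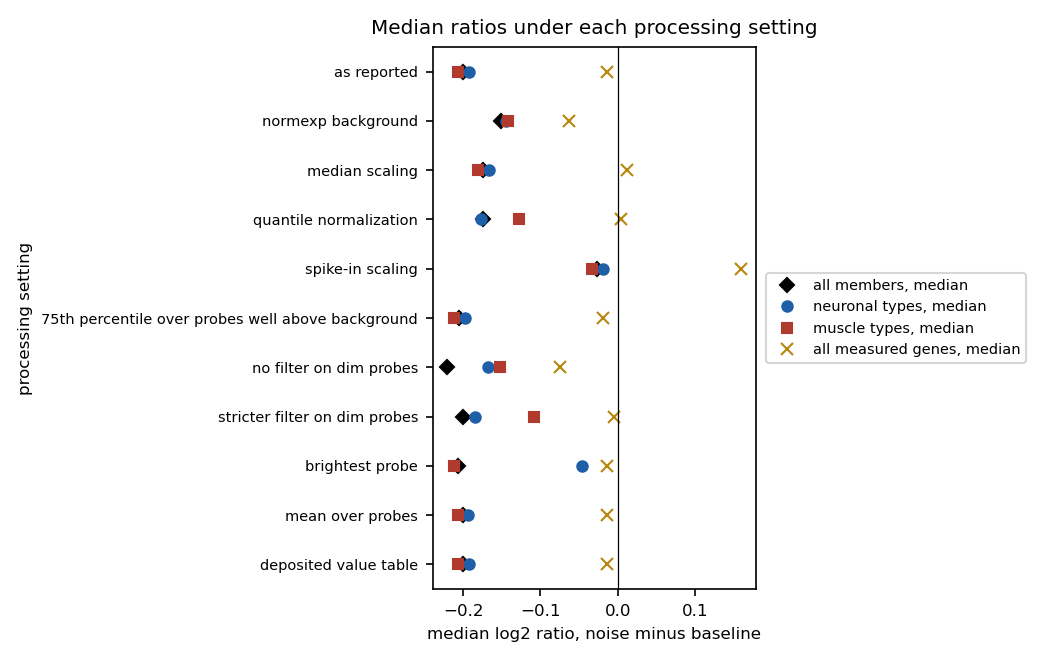
Median log2 ratio (noise minus baseline) of all measured members, neuronal types and muscle types, and of all measured genes, under the reported processing and 10 other settings. The 3 channel medians lie left of the median of all genes in each setting, with both shifted to the right under spike-in scaling, where the median of all genes is 0.16.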

How the data were processed

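Total cochlear RNA was measured on 1-colour (Cy3) Agilent arrays, 1 per group. Per the file headers, spot intensity in the deposited scanner output comes from Agilent Feature Extraction 11.5.1.1, with background subtracted and each array detrended, with no scaling across arrays. A further table deposited by the authors gives log2 values whose 75th percentile lies at 0 on each array, as the values themselves show. Probe positions are on mm9, per the file headers, and exon or untranslated-region annotation of that build was not used here. RefSeq held the accessions of 74 member probes, and its symbol differed from the array's for 4, all Scn2a1 (now Scn2a).

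Control and outlier spots were left out, log2 processed intensity was averaged per probe (56590 probes, 41647 well above background on both arrays), and each array's 75th percentile was subtracted (Python 3.11.15, pandas 2.3.3). The normexp alternative used limma 3.58.1. Alternatives were 3 other scalings besides spike-in scaling, normexp, 2 filters on dim probes, the brightest or mean probe and the deposited table. The ratio step was run on simulated data with shifts larger than any member's ratio and probe errors smaller than the pooled SD between probes. This checked the calculation only, not how well ratios of the members' size are recovered. With 1 array per group no p-value was computed and a 2-fold rule was used. Named were members past 2-fold, at-least folds, the highest and lowest of each class, then the remaining members, and partner or marker genes past 2-fold or at the ends of their list; other partners named, the potassium channel and glutamate receptor genes and the split by brightness were chosen after values were seen. The members and lists were chosen with earlier results of these data known. Some channel genes are not reported here singly; those that met the rule for members remain in the counts and medians.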

Additional observations from a re-analysis of the deposited data

How the results depend on the processing

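Besides the reported processing, 10 settings were run, along with narrower neuronal and muscle sets. No member was at least 2-fold higher in any of the 10, and the number at least 2-fold lower was 0 in all but the brightest-probe setting, where it was 1 (Cacng7 at -1.23). A fold of 1.5, chosen after the data were seen, gave 2 lower and 0 higher. Across these alternatives the median ran from -0.22 to -0.03 for all members, from -0.20 to -0.02 for neuronal types and from -0.21 to -0.03 for muscle types (-0.11 over the 4 muscle genes described singly). Of 368 values of single members, 8 moved by more than 0.27, the SD between probes of a gene. With the brightest probe these were Cacna1e (0.15), Cacna1g (-0.66), Cacna2d1 (0.26) and Cacng7. With no filter on dim probes, which adds probes near background, they were Cacna1f (-0.62), Cacna2d4 (-0.69), Scn3b (-0.38) and Scn9a (0.07). No paired analysis was possible because only 1 array existed in each group; leaving out a replicate was likewise not possible. Precision is limited by the number of arrays, and for Scn9a, Cacng1 and other dim members by background.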
